A study of Mus musculus with 2 samples.

Results

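The translation initiation factors (eIFs) and elongation factors (eEFs) were followed in sorted mouse CD4+ CD25+ T cells, a gate that is rich in regulatory T (Treg) cells. Members were all rows of the gene table whose symbol starts with Eif or Eef followed by a digit, without the Eif2ak kinases and without symbols ending in -ps. This rule took 65 of the 31056 rows of the table and used no measured value. RNA molecules were counted as unique molecular identifiers (UMIs), and levels are given as CPM, a gene's UMIs scaled to the same total in every group of cells. Of the members, 53 had a mean of at least 20 CPM over all kept cells of both libraries, 7 had UMIs but stayed below it, and 5 had no UMI in any kept cell.

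The cells came from healthy Mycfl/flFoxp3Cre/WT female mice. Both alleles of Myc, a growth-promoting transcription factor, are flanked by loxP sites in every cell, and Cre is made from 1 of the 2 X-linked Foxp3 alleles. X inactivation therefore leaves Treg cells with and without Cre, which the study's title calls Myc-deficient and Myc-sufficient, side by side in the same animal. Cells positive and negative for YFP were sorted together, and 1 spleen and 1 lymph node library were made with the 10x 3' V2 kit, each in 1 lane. The sources used here give neither the number of mice behind each library nor the animal or YFP status of a cell. With 1 library per tissue there is no replicate check, so no test was made. All intervals are 95% intervals for counting error only.

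In translation initiation, eIF1 and eIF1A hold the small ribosomal subunit open for scanning, eIF2 brings the initiator tRNA, eIF2B recharges eIF2 with GTP, eIF3 is the large scaffold on the small subunit, and eIF4F binds the cap and unwinds the leader. In elongation, eEF1A delivers aminoacyl-tRNA, the eEF1B subunits exchange its nucleotide, and eEF2 moves the ribosome along the message. Several elongation factors and some eIF3 subunits share with the ribosomal proteins a terminal oligopyrimidine (TOP) leader in human cells, through which mTOR signalling controls their translation. Resting T cells keep translation low, and activation raises the synthesis of ribosomes and initiation factors. Myc is known to bind the E-box CACGTG in many genes of this machinery.

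Cells were kept with at least 500 genes and at most 10% mitochondrial UMIs, which left 6543 spleen and 4820 lymph node cells with a median of 1935 and 2031 UMIs per cell. A total of 53 barcodes occurred in both libraries. The members held 2.08% of the UMIs in spleen and 2.02% in lymph node, against 32.8% and 33.5% for the ribosomal proteins. Gates were set on raw UMIs. The ICRE gate held cells with an ICRE UMI and no Foxp3 UMI, 505 in spleen and 354 in lymph node, and the Foxp3 gate held the converse, 1195 and 982 cells. ICRE is a feature that was added to the gene table. The sources used here do not give its sequence, and taking it to tag the Cre-bearing allele is an assumption. The Klrg1 gate (126 and 140 cells), the Tnfrsf9 gate (924 and 732 cells) and the Ly6c1 gate (1229 and 815 cells) each had at least 1 UMI of that gene and none of the other two. Klrg1 marks differentiated effector Treg cells, Tnfrsf9 (4-1BB) marks recent antigen receptor stimulation, and Ly6c1 is carried by resting cells. A count of 0 for a gate gene does not show that a cell lacks it.

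The gates differed in depth and in other markers. Median UMIs per cell were 1635 in the ICRE gate and 2941 in the Foxp3 gate of spleen, and 1605.5 and 2859.5 in lymph node. They were 3058 in the Klrg1 gate, 2297.5 in the Tnfrsf9 gate and 1838 in the Ly6c1 gate of spleen, and 2923, 2308.5 and 1746 in lymph node. The T cell markers Cd3e, Cd3d, Trac and Cd4 summed to between 2800 and 3601 CPM over the 5 gates of both libraries. The Treg markers Foxp3, Il2ra and Ikzf2 summed to 906 CPM in the ICRE gate and 1417 CPM in the Foxp3 gate of spleen, and to 970 and 1370 CPM in lymph node. The low Foxp3 level of the ICRE gate is set by the gate. These Treg markers summed to 1621 CPM in the Klrg1 gate, 1251 CPM in the Tnfrsf9 gate and 562 CPM in the Ly6c1 gate of spleen. In lymph node they summed to 1528, 1101 and 568 CPM. Contrasts with the Ly6c1 gate therefore also set cells with more Treg marker RNA against cells with less. Haemoglobin genes summed to at most 3.9 CPM in the 5 gates of spleen, against 122 to 147 CPM in those of lymph node.

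All of the larger complexes were represented. Of the start codon and subunit joining factors 7 of 7 passed the minimum, of the eIF2 and Met-tRNA delivery group 5 of 6, of the eIF2B subunits 4 of 5, of eIF3 13 of 14, of the eIF4F group 11 of 12, and of the eEF1B subunits and partners 4 of 4. The members with no UMI were Eef1a2, the eEF1A paralogue of muscle and neurons, Eif2s3y, the Y-linked copy of the eIF2 gamma subunit, Eif4e1b, Eif4ebp3 and Eif2c5, an Argonaute-type symbol that GENCODE types as a lincRNA. Eif2s3y is absent from female genomes, and its X-linked partner Eif2s3x had 890 UMIs in spleen and 717 in lymph node. For Eef1a2, 0 UMIs stood beside 95725 Eef1a1 UMIs in spleen and 76548 in lymph node. Eef2k, the kinase that inhibits eEF2, was below the minimum at 6.55 CPM in spleen and 6.59 CPM in lymph node. Eif3j1 and Eif3j2 are near-identical copies, and the sources used here do not say how the authors' counting split reads between them. The same holds for Eef1a1 and its processed pseudogenes.

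The E-box was searched for in the 250 bases before each RefSeq start on GRCm38.p6. CACGTG reads the same on both strands, so a single search covers both. A window was found for 49 of the 65 members, and 12 of them (24.5%) held the motif. Of all 27025 genes with a RefSeq window, whether or not expressed in these cells, 1854 (6.86%) held it. A share among expressed genes alone was not taken, so these shares compare unlike sets of genes. The 12 were Eef1akmt4, Eef2, Eef2k, Eif1b, Eif3f, Eif3k, Eif4a1, Eif4e, Eif4g1, Eif4h, Eif5a and Eif5a2. The windows of Eif4a1, Eef2, Eif3f and Eif4h are shown because these genes carry results described next, and because they cover the helicase, elongation, scaffold and helicase-cofactor roles. They are written 5′ to 3′ along the gene's own strand with the motif in capitals.
Eif4a1: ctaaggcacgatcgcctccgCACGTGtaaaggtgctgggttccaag
Eef2: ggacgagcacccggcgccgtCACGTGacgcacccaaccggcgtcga
Eif3f: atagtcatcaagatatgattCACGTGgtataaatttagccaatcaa
Eif4h: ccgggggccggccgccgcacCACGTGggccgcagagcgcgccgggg
The Eif4a1 window is chr11:69672587-69672632 on the minus strand, and its motif begins 189 bases before the start. The Eef2 window is chr10:81176568-81176613 on the plus strand, with the motif 43 bases before the start. The Eif3f window is chr7:108934327-108934372 on the plus strand, with the motif 68 bases before the start, and the Eif4h window is chr5:134639480-134639525 on the minus strand, with the motif 96 bases before it. The searched windows of Eef1a1, Eef1b2, Eif4a2 and Eif1 do not hold these letters. A match is a description of the sequence, not evidence that Myc binds there in these cells.

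The contrast nearest to the study's question set the ICRE gate against the Foxp3 gate. The elongation factors were lower in the ICRE gate of both libraries, as were most eIF3 subunits, while Eif1 and Eif4a2 were higher. The 5 main elongation factors (Eef1a1, Eef1b2, Eef1d, Eef1g and Eef2) summed to 7792 CPM in the ICRE gate and 10815 CPM in the Foxp3 gate of spleen, a ratio of 0.720 (0.703 to 0.738). In lymph node they summed to 7530 and 10660 CPM, a ratio of 0.706 (0.685 to 0.728). That is 1.39-fold and 1.42-fold lower, and the difference between the libraries was small beside the difference between the gates. Cells with both an ICRE and a Foxp3 UMI, 44 in spleen and 25 in lymph node, were in neither gate. Their elongation sum lay between the gates, at 9337 CPM (8857 to 9837) in spleen and 8538 CPM (7919 to 9192) in lymph node. The ratio of the gates therefore sets cells apart by Foxp3 detection as well as by ICRE. All members apart from these 5 summed to nearly the same level in both gates, with ratios of 0.985 (0.964 to 1.007) in spleen and 0.971 (0.946 to 0.997) in lymph node. Without the cells that held a marker of another cell type the elongation ratio was 0.716 in spleen and 0.717 in lymph node.

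Eef1a1, on chromosome 9 (78478449 to 78489151, minus strand, GRCm38, ENSMUSG00000037742), had 4505 CPM in the ICRE gate and 6244 CPM in the Foxp3 gate of spleen, a ratio of 0.722 (0.698 to 0.745). In lymph node it had 4246 and 6287 CPM, a ratio of 0.675 (0.649 to 0.703). Eef2, the translocase on chromosome 10 (81176631 to 81182498, plus strand, ENSMUSG00000034994), had 1221 CPM in the ICRE gate and 1869 CPM in the Foxp3 gate of spleen, and 1237 and 1791 CPM in lymph node. Its ratios were 0.653 (0.614 to 0.695) and 0.691 (0.641 to 0.744). Both genes thus lay lower in the ICRE gate of each library, with intervals well clear of 1.

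Eef1b2, the exchange subunit on chromosome 1 (63176825 to 63180486, plus strand, ENSMUSG00000025967), had 551 CPM in the ICRE gate and 886 CPM in the Foxp3 gate of spleen, a ratio of 0.622 (0.566 to 0.682). In lymph node it had 600 and 920 CPM, a ratio of 0.652 (0.585 to 0.725). Eef1g, the structural eEF1B subunit, had ratios of 0.760 (0.707 to 0.817) and 0.804 (0.735 to 0.879). Eef1d, the other exchange subunit, did not share the difference. Its point in the plot of ICRE over Foxp3 ratios lies at the zero line in both libraries.

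Among the eIF3 subunits, 12 of 13 were lower in the ICRE gate of each library, and 11 were lower in both. The summed eIF3 level was 3940 CPM in the ICRE gate and 4575 CPM in the Foxp3 gate of spleen, and 3474 and 4283 CPM in lymph node, with ratios of 0.861 (0.831 to 0.892) and 0.811 (0.775 to 0.847). Eif3l had 103 CPM in the ICRE gate and 132 CPM in the Foxp3 gate of spleen, and 83.5 and 123 CPM in lymph node, with ratios of 0.783 (0.625 to 0.972) and 0.677 (0.500 to 0.900). Without the cells that held a marker of another cell type its lymph node log2 ratio was 0.17, so its direction there did not hold. Among the TOP subunits, Eif3e had ratios of 0.820 (0.745 to 0.900) in spleen and 0.721 (0.637 to 0.814) in lymph node, and Eif3f had 0.866 (0.802 to 0.934) and 0.761 (0.691 to 0.837). Eif2s1, the eIF2 alpha subunit that stress kinases phosphorylate, had 86.1 CPM in the ICRE gate and 114 CPM in the Foxp3 gate of spleen, and 51.0 and 94.6 CPM in lymph node. Its ratios were 0.752 (0.588 to 0.953) and 0.540 (0.365 to 0.773), while the eIF2 trimer as a whole had ratios of 0.962 (0.857 to 1.08) and 0.942 (0.817 to 1.08), whose intervals include 1.

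Eif1, the scanning factor on chromosome 11 (100319885 to 100322096, plus strand, ENSMUSG00000035530), went the other way. It had 2286 CPM in the ICRE gate and 1755 CPM in the Foxp3 gate of spleen, a ratio of 1.30 (1.24 to 1.37), and 2339 and 1853 CPM in lymph node, a ratio of 1.26 (1.19 to 1.34). The eIF4A helicases of the cap complex moved apart. Eif4a1, on chromosome 11 (69666936 to 69672423, minus strand, ENSMUSG00000059796), had 592 CPM in the ICRE gate and 736 CPM in the Foxp3 gate of spleen, and 424 and 545 CPM in lymph node, with ratios of 0.804 (0.733 to 0.880) and 0.778 (0.683 to 0.883). Eif4a2, its paralogue on chromosome 16 (23107444 to 23114136, plus strand, ENSMUSG00000022884), had 321 CPM in the ICRE gate and 229 CPM in the Foxp3 gate of spleen, and 365 and 262 CPM in lymph node, with ratios of 1.40 (1.23 to 1.59) and 1.40 (1.20 to 1.61). The eIF4F group as a whole had ratios whose intervals include 1, 0.967 (0.918 to 1.018) in spleen and 1.03 (0.962 to 1.09) in lymph node.

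**Figure D1:**
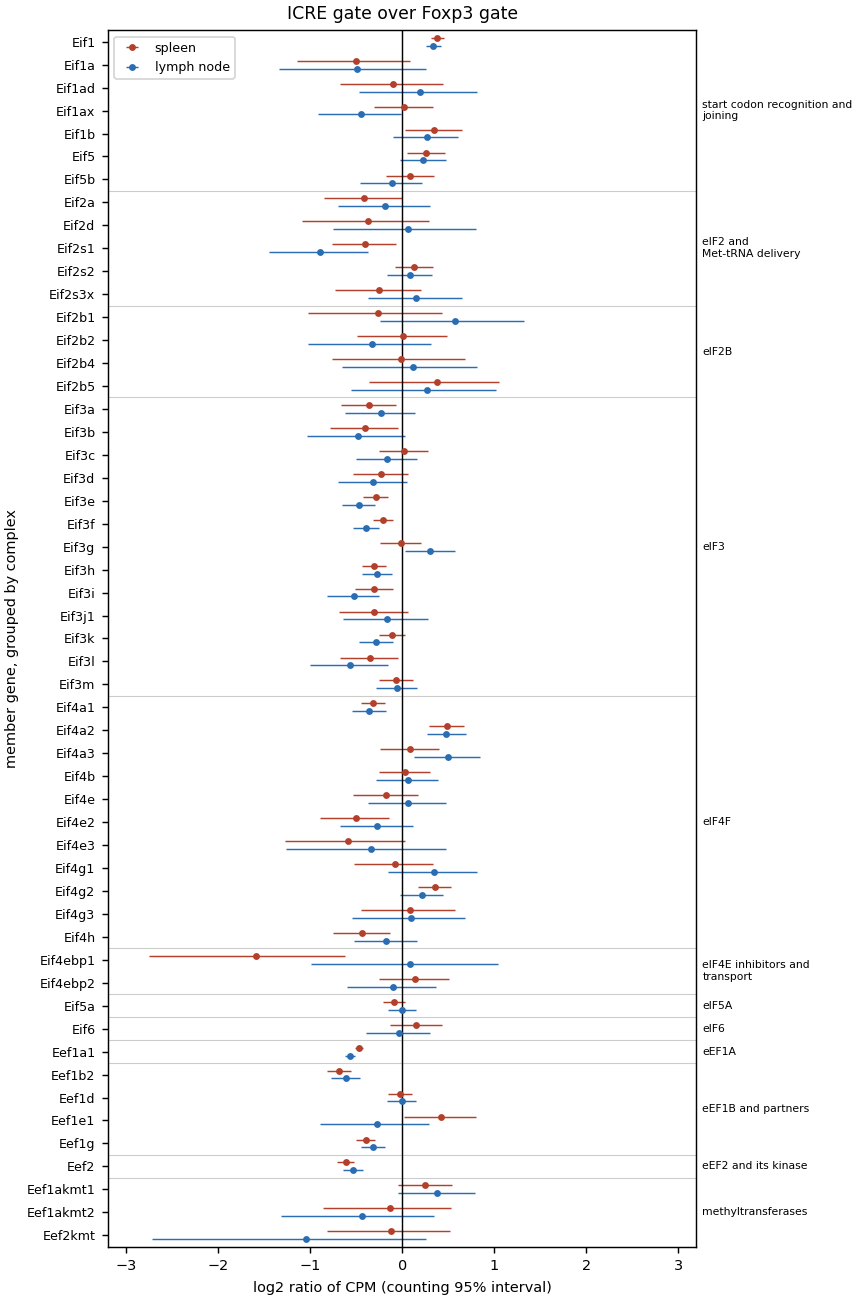
Log2 ratio of CPM in the ICRE gate over the Foxp3 gate for each of the 53 members that passed the minimum, grouped by complex, in spleen (red) and lymph node (blue). Points are ratios of summed UMIs and bars are 95% counting intervals. Eef1a1, Eef1b2, Eef1g, Eef2 and 12 of 13 eIF3 points of each library lie left of 0, and Eif1 and Eif4a2 lie right of it.

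Several regulators gave no clear direction. Eif5a, the hypusine-bearing factor, had 781 CPM in the ICRE gate and 830 CPM in the Foxp3 gate of spleen, and 637 and 639 CPM in lymph node. Eif4e, which binds the cap, had 85.0 against 95.7 CPM in spleen and 88.2 against 84.3 CPM in lymph node, ICRE gate first. Eif4ebp1, the eIF4E inhibitor under mTOR control, had 9.56 CPM in the ICRE gate and 28.9 CPM in the Foxp3 gate of spleen, a ratio of 0.331 (0.148 to 0.649). In lymph node it had 17.0 and 16.0 CPM, a ratio of 1.06 (0.502 to 2.05), so the spleen difference was not seen there. Eif4ebp2 had ratios of 1.10 and 0.931, with intervals that include 1.

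The members as a list are given beside all features by the size used for calls here, at least 25% higher or at least 20% lower, which are the same fold in either direction. In spleen 15 of 53 members were lower past it, and in lymph node 16 of 53, where 17.4% and 18.8% of the 5043 features at 20 CPM or more were. By any size 26 members were lower in both libraries, against a background of 27.3%, and 11 were higher in both, against a background of 44.1%. Higher past the call size were 6 members in each library, where 28% and 27.5% of all features were. In both libraries together 8 members were lower past it (Eef1a1, Eef1b2, Eef2, Eif1a, Eif2s1, Eif3b, Eif3l and Eif4e3), against a background of 9.8%, and 2 were higher (Eif1 and Eif4a2), against a background of 15.8%. Over 12 alternatives these counts ranged from 2 to 16 lower and from 0 to 2 higher, and 0 of these 10 members passed in every alternative. The intervals of Eif1a, Eif3b and Eif4e3 include equal levels in spleen, lymph node or both. In the ICRE gate Eif1a had 27 UMIs in spleen and 16 in lymph node, and Eif4e3 had 24 and 14. The median log2 ratio of the members was -0.12 in spleen and -0.16 in lymph node, where that of all features was 0.089 and 0.083. Over the 53 genes the intervals of the median ran from -0.30 to -0.01 and from -0.28 to 0.07.

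The ribosomal proteins, listed beside the members, had medians of -0.22 in both libraries, with 71 of 80 lower in each. Their sum was 0.864 times the Foxp3 gate level in spleen and 0.863 times in lymph node, so the elongation factor ratios lay further from 1 than those of the ribosomal proteins. Of the 9 members with a TOP message in human cells 8 were lower in each library, with medians of -0.30 and -0.39. Among translation genes outside the rule, the poly(A)-binding protein gene Pabpc1 had ratios of 0.83 and 0.74. Ppp1r15a, whose product helps dephosphorylate eIF2 alpha, had ratios of 1.36 and 1.29, and Pdcd4, an inhibitor of eIF4A, had 1.23 and 1.20.

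Depth and cell state moved with this contrast. The elongation factor sum itself depended on depth over all kept cells: it was 7336, 8621 and 11373 CPM in spleen cells with under 1500, 1500 to 2499 and 2500 or more UMIs, and 7219, 8575 and 11208 CPM in lymph node. Within these bins it stayed lower in the ICRE gate. In spleen it was 7067 against 8315 CPM in the lowest bin, 7595 against 9059 CPM in the middle bin and 8894 against 11225 CPM in the highest, ICRE gate first, with ratios of 0.850 (0.786 to 0.920), 0.838 (0.804 to 0.874) and 0.792 (0.758 to 0.828). In lymph node the ratios were 0.915 (0.828 to 1.012), 0.831 (0.792 to 0.872) and 0.764 (0.721 to 0.809), of which the interval of the first includes 1. The difference within bins was therefore smaller than the pooled difference in all bins of both libraries. The bins are wide and the highest has no upper limit, so depth was not matched between the gates inside a bin. How much of the difference within bins goes with depth was not tested.

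**Figure D2:**
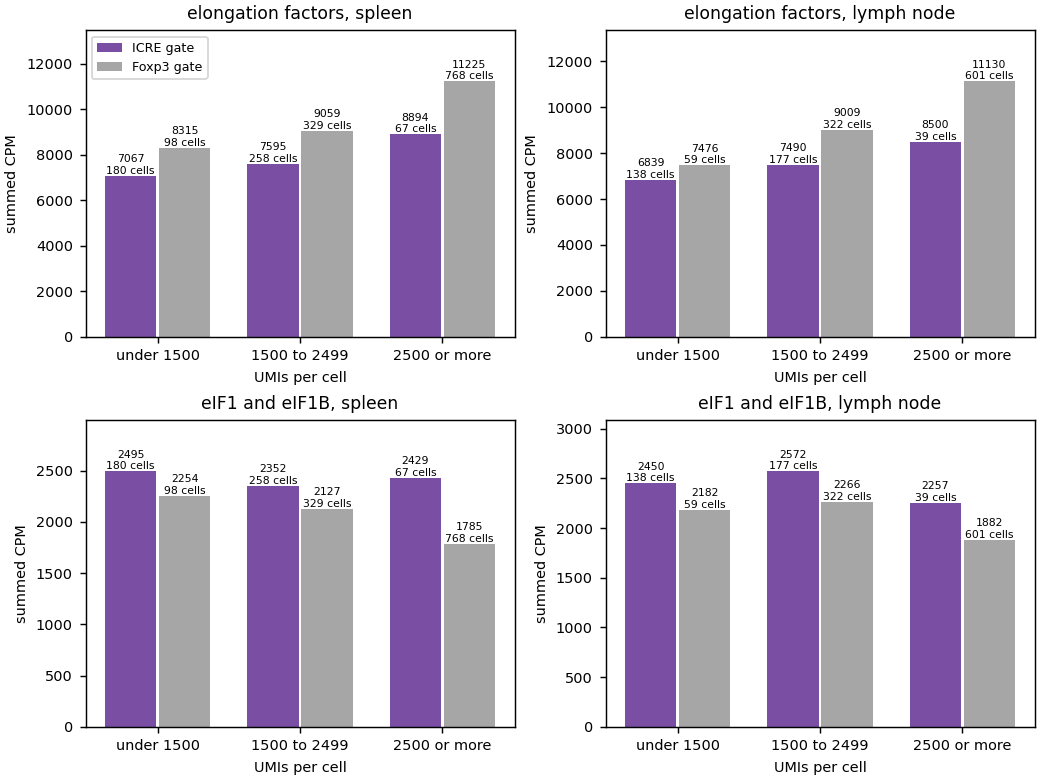
Summed CPM of the 5 main elongation factors (top) and of Eif1 with Eif1b (bottom) in the ICRE gate (purple) and the Foxp3 gate (grey), by UMIs per cell, in spleen (left) and lymph node (right). Cell numbers stand above the bars. The elongation sum climbs with depth in both gates and is lower in the ICRE gate of every bin, and the eIF1 sum is higher in the ICRE gate of every bin.

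The other differences held less evenly over depth. The sum of Eif1 and Eif1b was higher in the ICRE gate in all 3 bins, with ratios of 1.11 (0.958 to 1.28), 1.11 (1.02 to 1.20) and 1.36 (1.248 to 1.48) in spleen and 1.12 (0.937 to 1.35), 1.14 (1.04 to 1.24) and 1.20 (1.07 to 1.34) in lymph node. The eIF3 sum had spleen ratios of 0.997 and 0.982 in the lower bins, with intervals that include 1, and 0.922 (0.866 to 0.982) in the highest. In lymph node its ratios were 0.844 (0.731 to 0.975), 0.903 and 0.860. For Eif4a1 the spleen ratios were 1.14 and 1.04 in the lower bins, with intervals that include 1, and 0.743 (0.621 to 0.882) in the highest.

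Effector Treg markers (Klrg1, S100a4, Gzmb and Icos) summed to 142 CPM in the ICRE gate and 945 CPM in the Foxp3 gate of spleen, and to 80.4 and 721 CPM in lymph node. Cycling markers (Mki67, Top2a and Birc5) summed to 9.56 and 189 CPM in spleen and to 15.5 and 233 CPM in lymph node, in the same order. With the cells that held a cycling marker left out, the elongation ratio was 0.716 in spleen and 0.704 in lymph node. Within the Tnfrsf9 gate it was 0.721 (0.678 to 0.766) in spleen, over 71 ICRE cells and 208 Foxp3 cells, and 0.711 (0.658 to 0.766) in lymph node, over 53 and 179 cells. Within the Ly6c1 gate it was 0.723 (0.684 to 0.764) in spleen, over 96 and 170 cells, and 0.666 (0.624 to 0.710) in lymph node, over 91 and 93 cells. These ratios were close to those of the pooled gates, and the gap in depth was there too: median UMIs were 1744 in ICRE cells and 3379 in Foxp3 cells of the Tnfrsf9 gate and 1646.5 and 2700.5 in the Ly6c1 gate of spleen, and 1652 and 3133, and 1612 and 2892, in lymph node. The part of depth in the within-state ratios was not tested. In the Klrg1 gate, 1 spleen ICRE cell gave a ratio of 0.545 (0.272 to 0.977) and 2 lymph node ICRE cells gave 1.29 (1.09 to 1.52), the opposite direction, from too few cells to describe the gate.

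The states marked by Tnfrsf9, Klrg1 and Ly6c1 divided the members in another way. Set against the same Ly6c1 gate, the Tnfrsf9 gate had higher CPM of initiation factors across nearly all complexes. Its elongation factor sum was similar with cells of all depths pooled and lower in each depth bin. The Klrg1 gate had a mixed picture, with Eif4ebp1, Eif4e2 and Eif4e3 higher and Eef1b2 and Eef1g lower. Both contrasts share the Ly6c1 cells, so their values are given side by side only.

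In the Tnfrsf9 gate 46 of 53 members were higher than in the Ly6c1 gate in each library, 42 of them in both, against a background of 55.1%. Past the call size 24 were higher in spleen and 20 in lymph node, against backgrounds of 35.5% and 31%, and 17 were higher in both, against a background of 23.2%. Lower past it was 1 member in each library (backgrounds 11.1% and 12.6%) and none in both (background 6.82%). Among the 17 were Eif1a, Eif1ax and Eif5b of start codon recognition and joining, Eif2a and Eif2s1 of tRNA delivery, and Eif2b5 of eIF2B. Also among them were Eif3b, Eif3c and Eif3i of eIF3, and Eif4a1, Eif4e2, Eif4g1 and Eif4h of the eIF4F group. The others were the eIF4E inhibitor Eif4ebp1, Eif5a, Eef1e1 and Eef1akmt2. The intervals of Eif2a, Eif2b5 and Eif4ebp1 include equal levels in spleen, lymph node or both. Over 13 alternatives 10 to 25 members were higher past it in both libraries, and Eif3b, Eif5a and Eif5b passed in all 13. The median log2 ratio of the members was 0.22 in spleen and 0.28 in lymph node, where that of all features was 0.17 and 0.13. Ribosomal proteins held 30.6% of the UMIs of the Tnfrsf9 gate and 36.0% of those of the Ly6c1 gate in spleen. In lymph node they held 31.7% and 35.5%, and CPM of the other genes moves with this share. Centred on the median of all features, the member medians were smaller, as given under processing below.

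Eif5a, on chromosome 11 (69916714 to 69921958, minus strand, ENSMUSG00000078812), had 1180 CPM in the Tnfrsf9 gate and 641 CPM in the Ly6c1 gate of spleen, a ratio of 1.84 (1.74 to 1.95). In lymph node it had 984 and 572 CPM, a ratio of 1.72 (1.60 to 1.85). Its hypusine-bearing product rescues ribosomes that stall during elongation and termination. Eif2s1 had 147 CPM in the Tnfrsf9 gate and 80.4 CPM in the Ly6c1 gate of spleen, and 119 and 70.5 CPM in lymph node, with ratios of 1.83 (1.56 to 2.17) and 1.68 (1.37 to 2.09). The eIF2 trimer as a whole had ratios of 1.27 (1.17 to 1.37) and 1.18 (1.08 to 1.30). Both libraries thus gave the same order for the alpha subunit and for its complex.

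Eif3b, the RNA-binding core subunit of eIF3, had 132 CPM in the Tnfrsf9 gate and 69.8 CPM in the Ly6c1 gate of spleen, and 106 and 62.0 CPM in lymph node, with ratios of 1.90 (1.59 to 2.27) and 1.72 (1.37 to 2.16). Eif3c had 192 against 126 CPM in spleen and 194 against 136 CPM in lymph node, Tnfrsf9 gate first. The eIF3 sum differed less, with a ratio of 1.13 in each library, and the subunits were unequal: Eif3e, Eif3f and Eif3k lie near the zero line of the plot of ratios over the Ly6c1 gate. Eif4a1 had 899 CPM in the Tnfrsf9 gate and 619 CPM in the Ly6c1 gate of spleen, a ratio of 1.45 (1.37 to 1.54), and 747 and 513 CPM in lymph node, a ratio of 1.46 (1.35 to 1.58). Eif4a2 was lower, with ratios of 0.811 (0.734 to 0.896) and 0.876 (0.782 to 0.981).

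Eif1ax, the X-linked eIF1A, had 128 CPM in the Tnfrsf9 gate and 79.3 CPM in the Ly6c1 gate of spleen, and 134 and 90.8 CPM in lymph node, with ratios of 1.62 (1.37 to 1.92) and 1.47 (1.22 to 1.79). Eif5b, the GTPase that joins the subunits, had 190 against 126 CPM in spleen and 186 against 127 CPM in lymph node, with ratios of 1.50 (1.31 to 1.73) and 1.46 (1.248 to 1.72). Eif1 itself had nearly the same level in both gates, with ratios of 1.01 (0.971 to 1.05) and 0.990 (0.949 to 1.03). Eef1akmt2, known in human cells as a lysine methyltransferase of eEF1A, had 27.6 CPM in the Tnfrsf9 gate and 15.7 CPM in the Ly6c1 gate of spleen, and 35.3 and 17.1 CPM in lymph node, with ratios of 1.76 (1.20 to 2.61) and 2.07 (1.36 to 3.21).

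The elongation factors differed little here with cells of all depths pooled. They summed to 10095 CPM in the Tnfrsf9 gate and 10170 CPM in the Ly6c1 gate of spleen, and to 10185 and 9865 CPM in lymph node, with ratios of 0.993 (0.976 to 1.009) and 1.03 (1.01 to 1.05). Of the 9 TOP members none passed the call size, and 70 of 80 ribosomal proteins in spleen and 66 of 80 in lymph node were lower. Of 15 translation genes outside the rule that passed the minimum, 12 were higher in spleen and 10 in lymph node. Pabpc4, a poly(A)-binding protein gene whose human counterpart is inducible in T cells, had ratios of 2.96 and 2.31. Etf1 and Gspt1, the release factors, had 1.56 and 1.43 in spleen and 1.50 and 1.45 in lymph node, and the recycling factor gene Abce1 had 1.40 and 1.42. Ppp1r15a was lower, at 0.64 in each library.

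Within depth bins the Tnfrsf9 results split. For Eif5a the ratios over the Ly6c1 gate were 1.48, 1.35 and 1.97 in spleen and 1.44, 1.19 and 1.86 in lymph node, from the lowest to the highest bin. For Eif4a1 they were 1.05, 1.28 and 1.50 in spleen and 1.02, 1.31 and 1.46 in lymph node, with intervals that include 1 in the lowest bin. The elongation sum was lower in the Tnfrsf9 gate in each bin, with ratios of 0.811, 0.832 and 0.956 in spleen and 0.976, 0.932 and 0.954 in lymph node. The lowest lymph node bin rests on 1065 and 2312 UMIs, and its interval includes 1. Cycling markers summed to 113 CPM in the Tnfrsf9 gate and 24.5 CPM in the Ly6c1 gate of spleen, and to 184 and 70.0 CPM in lymph node. Without the cells that held a cycling marker the log2 ratio of Eif5a was 0.82 in spleen and 0.54 in lymph node.

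**Figure D3:**
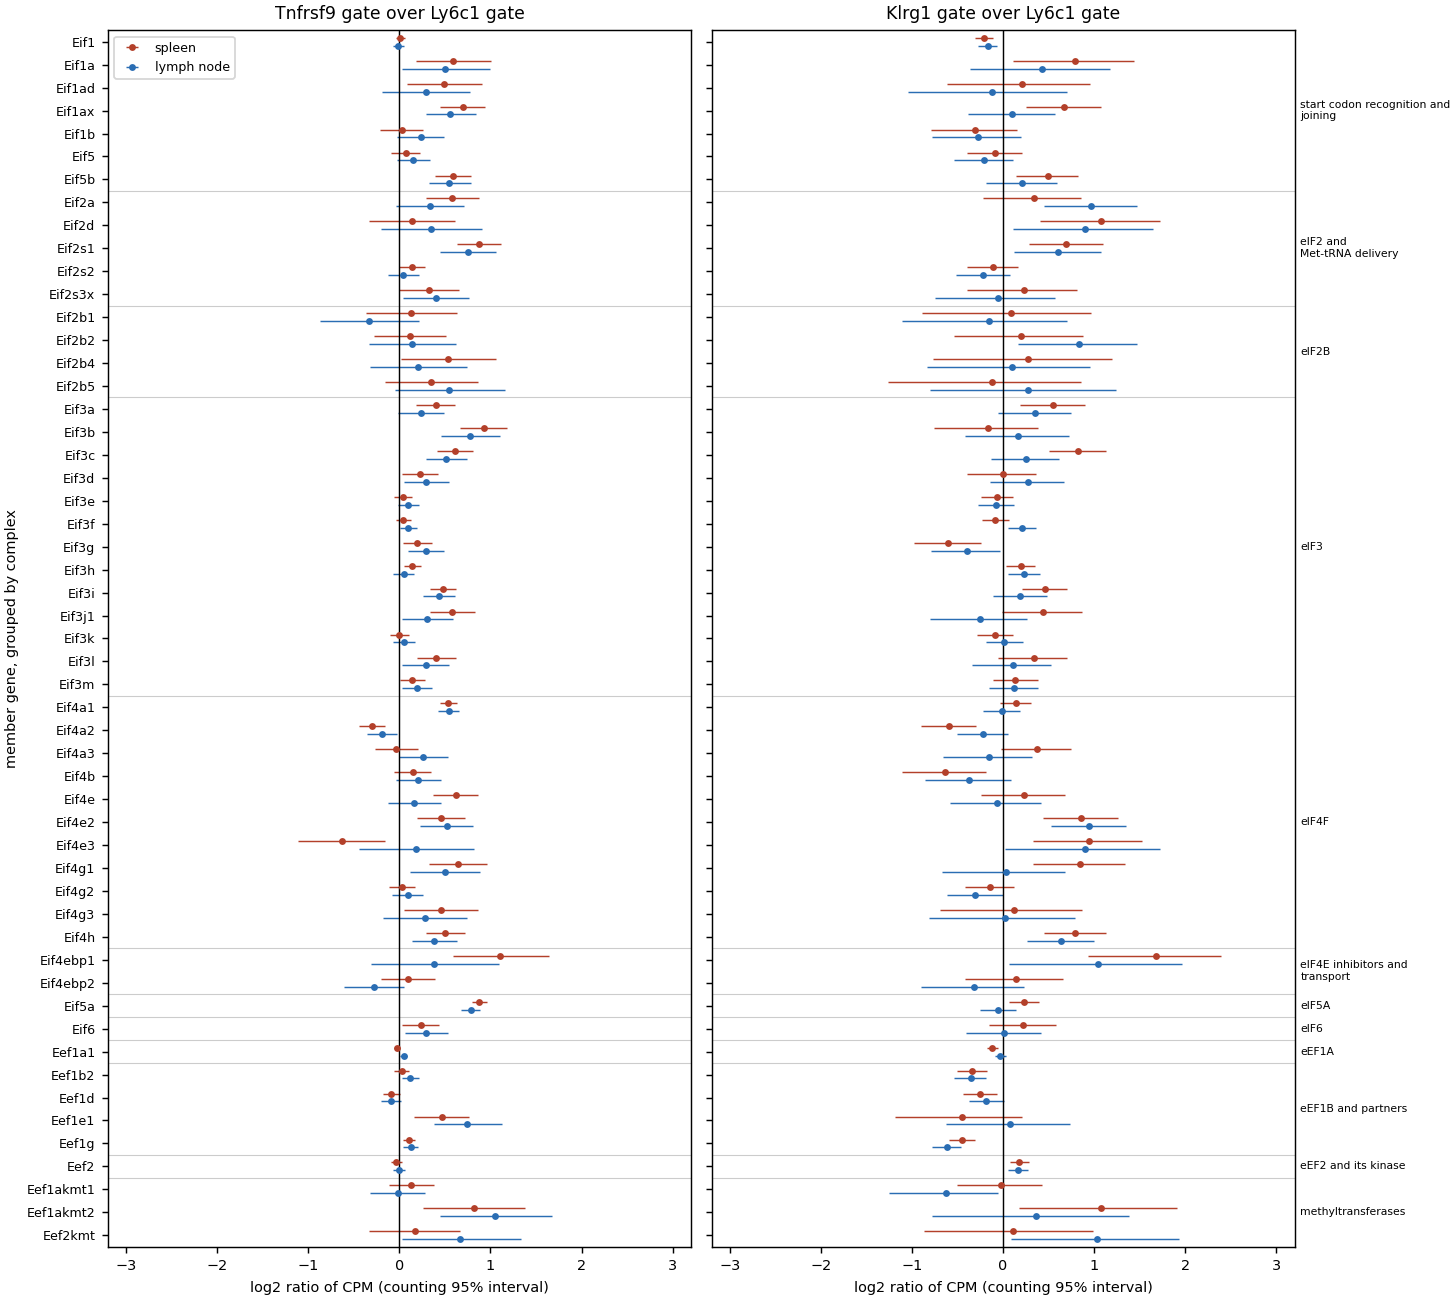
Log2 ratio of CPM in the Tnfrsf9 gate (left) and the Klrg1 gate (right) over the same Ly6c1 gate for the 53 members, grouped by complex, in spleen (red) and lymph node (blue), with 95% counting intervals. Most initiation factors lie right of 0 in the left panel while Eef1a1 and Eef2 lie at it, and in the right panel Eif4ebp1, Eif4e2 and Eif4h lie right of 0 and Eef1b2, Eef1g and Eif3g left of it.

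In the Klrg1 gate 33 of 53 members in spleen and 30 in lymph node were higher than in the Ly6c1 gate. Past the call size 18 and 12 were higher, against backgrounds of 40.3% and 34.6%, and 6 and 5 were lower, against a background of 19.3% in each library. By any size 24 members were higher in both libraries, against a background of 47.2%, and 14 were lower in both, against a background of 24.1%. In both libraries 10 were higher past it (Eef1akmt2, Eif1a, Eif2a, Eif2d, Eif2s1, Eif3a, Eif4e2, Eif4e3, Eif4ebp1 and Eif4h; background 23.5%) and 4 were lower (Eef1b2, Eef1g, Eif3g and Eif4b; background 9.24%). Of these, Eif2d, Eif4e2, Eif4e3 and Eif4h, and Eef1g and Eif3g, passed in every one of 13 alternatives. The member medians of 0.18 in spleen and 0.033 in lymph node stood beside 0.20 and 0.13 for all features. The gate was small, and its intervals were wide. Those of Eef1akmt2, Eif1a, Eif2a, Eif3a and Eif4b include equal levels in spleen, lymph node or both.

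Eif4ebp1 had 52.5 CPM in the Klrg1 gate and 16.4 CPM in the Ly6c1 gate of spleen, a ratio of 3.19 (1.90 to 5.26), and 31.8 and 15.5 CPM in lymph node, a ratio of 2.05 (1.04 to 3.91). Eif4e2, a cap-binding protein of repressor complexes, had 132 against 73.1 CPM in spleen and 155 against 80.7 CPM in lymph node, with ratios of 1.81 (1.35 to 2.39) and 1.92 (1.44 to 2.54). Eif4e3, another eIF4E paralogue, had 66.1 against 34.4 CPM in spleen and 37.8 against 20.3 CPM in lymph node, with ratios of 1.92 (1.26 to 2.88) and 1.86 (1.01 to 3.31), Klrg1 gate first throughout. Eif4ebp2, the other expressed eIF4E inhibitor of this family, had 71.9 against 65.4 CPM in spleen and 65.7 against 81.8 CPM in lymph node, with ratios of 1.10 (0.750 to 1.57) and 0.803 (0.534 to 1.18). Eif4e, the canonical cap-binding gene, had ratios of 1.17 and 0.953 with intervals that include 1.

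Eif4h, a cofactor of eIF4A, had 191 CPM in the Klrg1 gate and 110.0 CPM in the Ly6c1 gate of spleen, and 181 and 116 CPM in lymph node, with ratios of 1.73 (1.37 to 2.18) and 1.55 (1.20 to 1.99). Eif2d, which delivers tRNA without GTP, had 56.4 against 26.7 CPM in spleen and 45.8 against 24.6 CPM in lymph node, with ratios of 2.11 (1.33 to 3.29) and 1.86 (1.08 to 3.14). Eef1g had 892 CPM in the Klrg1 gate and 1220 CPM in the Ly6c1 gate of spleen, and 738 and 1134 CPM in lymph node, with ratios of 0.732 (0.662 to 0.807) and 0.651 (0.581 to 0.727). Eif3g, the eIF3 subunit that binds eIF4B, had 140 against 212 CPM in spleen and 141 against 187 CPM in lymph node, with ratios of 0.659 (0.509 to 0.843) and 0.757 (0.578 to 0.980). Eef2 had ratios of 1.13 (1.06 to 1.22) and 1.12 (1.04 to 1.21). With ribosomal protein and mitochondrial UMIs out of the total its log2 ratios were -0.064 in spleen and -0.030 in lymph node, so its direction depends on that total.

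The elongation sum was 9328 CPM in the Klrg1 gate and 10170 CPM in the Ly6c1 gate of spleen, a ratio of 0.917 (0.889 to 0.946), and 9291 and 9865 CPM in lymph node, a ratio of 0.942 (0.912 to 0.973). Its ratios in the 3 depth bins were 0.884, 0.826 and 0.816 in spleen and 0.871, 0.868 and 0.843 in lymph node. In the lowest bin the Klrg1 gate had only 131 UMIs from 17 cells in spleen and 123 UMIs from 16 cells in lymph node. The intervals of that bin include 1. The ribosomal proteins were much lower: their median log2 ratio was -0.52 in spleen and -0.41 in lymph node, with 75 and 77 of 80 lower, and they held 24.9% of the UMIs of the Klrg1 gate and 36.0% of those of the Ly6c1 gate in spleen (26.5% and 35.5% in lymph node). Since the ribosomal protein UMIs take up this much of the total, CPM of the other genes moves with them. Cycling markers summed to 496 CPM in the Klrg1 gate and 24.5 CPM in the Ly6c1 gate of spleen, and to 328 and 70.0 CPM in lymph node. Without the cells that held a cycling marker the log2 ratio of Eif4ebp1 was 1.83 in spleen and 1.29 in lymph node. The natural killer cell markers Ncr1, Klrb1c and Klre1 were at 0 in the Klrg1 gate of spleen and summed to 23.9 CPM, from 12 UMIs, in that of lymph node.

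Between the Tnfrsf9 gate and the Klrg1 gate, the members were higher in the Tnfrsf9 gate in 38 of 53 cases in spleen and 40 in lymph node. Their medians were 0.10 and 0.23, where all features had -0.016 and 0.00081. By any size 33.3% of all features were higher in both libraries and 34.7% were lower in both. Their share in each single library is not given here. Past the call size, which 25.2% of all features passed upward and 26.6% downward in spleen and 25.5% and 25.8% in lymph node, 9 members in both libraries were higher (Eef1b2, Eef1e1, Eef1g, Eif1b, Eif3b, Eif3g, Eif4a1, Eif4b and Eif5a; background 12.9%) and 4 were lower (Eif2d, Eif4e2, Eif4e3 and Eif4ebp1; background 14.3%). Of these, Eef1g, Eif3b, Eif3g and Eif5a passed in all 13 alternatives and 0 of the 4 lower members did. The intervals of Eif1b, Eif2d, Eif4e2 and Eif4e3 include equal levels in spleen, lymph node or both. Those of Eif4ebp1 include 1, and its highest log2 ratios over the alternatives were 0.23 in spleen and 0.0054 in lymph node. Eif5a had 1180 CPM in the Tnfrsf9 gate and 752 CPM in the Klrg1 gate of spleen, and 984 and 551 CPM in lymph node, with ratios of 1.57 (1.41 to 1.75) and 1.79 (1.58 to 2.03). Eef1g had 1309 against 892 CPM in spleen and 1235 against 738 CPM in lymph node, with ratios of 1.47 (1.33 to 1.62) and 1.67 (1.50 to 1.87). Eif3g had 243 against 140 CPM in spleen and 228 against 141 CPM in lymph node, Tnfrsf9 gate first. The eIF4A helicase Eif4a1 had ratios of 1.32 (1.18 to 1.48) and 1.47 (1.29 to 1.69).

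The balance of the eIF4A paralogues was read as the share of Eif4a1 among their summed UMIs, which does not depend on the library total. It is a share of captured 3' tags, and the capture of each gene's end can differ. In spleen the share was 64.8% (61.5 to 68.0) in the ICRE gate, 76.3% (75.0 to 77.5) in the Foxp3 gate, 78.1% (76.6 to 79.5) in the Tnfrsf9 gate, 76.8% (72.7 to 80.6) in the Klrg1 gate and 66.5% (64.7 to 68.4) in the Ly6c1 gate. In lymph node it was 53.7% (49.3 to 58.1) in the ICRE gate, 67.6% (65.8 to 69.3) in the Foxp3 gate, 73.5% (71.7 to 75.2) in the Tnfrsf9 gate, 65.7% (60.8 to 70.4) in the Klrg1 gate and 62.5% (60.0 to 64.9) in the Ly6c1 gate. With cells of all depths pooled, the ICRE gate was lowest in both libraries, though in spleen its interval overlaps that of the Ly6c1 gate. The interval of the Klrg1 gate overlaps that of the Ly6c1 gate in lymph node and not in spleen. Intervals are Clopper-Pearson.

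**Figure D4:**
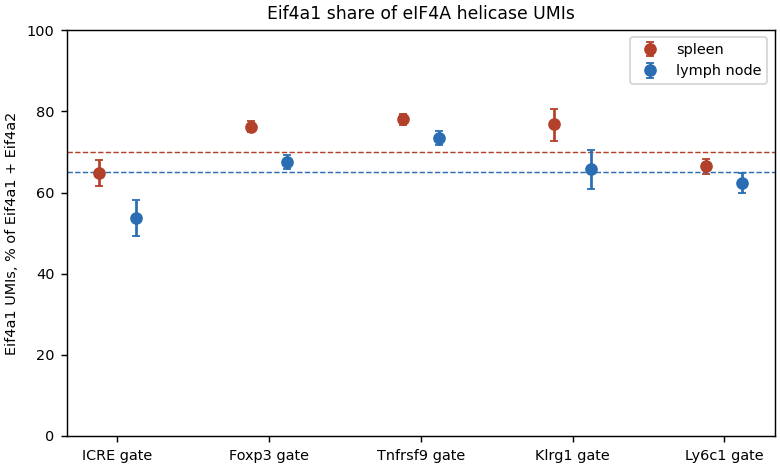
Share of Eif4a1 among Eif4a1 and Eif4a2 UMIs, in percent, in each gate of spleen (red) and lymph node (blue), with exact binomial 95% intervals. Dashed lines give the share over all kept cells, 70.0% in spleen and 65.0% in lymph node. The ICRE and Ly6c1 gates lie below the line of their library and the Tnfrsf9 gate above it.

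This share also climbed with depth. Over all kept cells it was 61.8%, 62.9% and 75.1% in spleen and 52.9%, 58.0% and 70.3% in lymph node, from the lowest to the highest bin. At 2500 or more UMIs it was 64.0% (57.2 to 70.4) in the ICRE gate and 78.7% (77.3 to 80.0) in the Foxp3 gate of spleen, and 60.5% (50.9 to 69.6) and 69.6% (67.6 to 71.5) in lymph node. In the lowest bin the gates were close, at 66.2% and 69.5% in spleen and 56.7% and 55.6% in lymph node, ICRE gate first. In the middle bin the libraries differed, with 64.6% and 63.0% in spleen and 48.5% (42.0 to 55.1) and 60.3% (56.0 to 64.5) in lymph node. The helicase difference between the ICRE and Foxp3 gates was thus clear of its intervals at the highest depth in spleen and at the middle depth in lymph node. In the lowest bin the Ly6c1 gate was below the ICRE gate, at 61.0% in spleen and 54.1% in lymph node, with overlapping intervals. In the middle and highest bins it was above, at 65.0% and 69.7% in spleen and 59.5% and 67.8% in lymph node. The lowest rank of the ICRE gate therefore did not hold in every bin.

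Of the other paralogue pairs, Eif1 made up 94.8% of Eif1 and Eif1b UMIs in spleen and 94.5% in lymph node, and between 93.9% and 95.2% over the gates. Eif1a made up 25.9% of Eif1a and Eif1ax UMIs in spleen and 26.2% in lymph node, and between 21.3% and 30.0% over the gates. Among the eIF4E genes, Eif4e3 made up 41.0% of Eif4e3 and Eif4e UMIs in the Klrg1 gate, 15.1% in the Tnfrsf9 gate and 29.7% in the Ly6c1 gate of spleen, and 30.6%, 18.7% and 18.4% in lymph node. The Klrg1 gate shares rest on 34 and 19 Eif4e3 UMIs, and their intervals overlap those of the Ly6c1 gate in both libraries. Eif4e made up 41.9% of Eif4e and Eif4e2 UMIs in the Klrg1 gate and 52.6% in the Ly6c1 gate of spleen, where the intervals overlap. In lymph node the shares were 35.5% and 52.7%, and the intervals do not overlap. Eif4ebp1 made up 42.2% of Eif4ebp1 and Eif4ebp2 UMIs in the Klrg1 gate and 20.1% in the Ly6c1 gate of spleen, where the intervals do not overlap. In lymph node the shares were 32.7% (19.9 to 47.5) and 15.9% (10.9 to 22.1), and the intervals overlap. In the ICRE gate its share was 11.1% in spleen and 20.4% in lymph node, from 9 and 11 Eif4ebp1 UMIs.

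The elongation factors were also set against the ribosomal proteins, as UMIs of the 5 factors per 1000 ribosomal protein UMIs, a ratio that again does not depend on the total. With cells of all depths pooled, the ICRE gate was lowest in both libraries, at 27.2 (26.6 to 27.8) in spleen and 25.8 (25.0 to 26.5) in lymph node. The Foxp3 gate had 32.6 (32.3 to 32.9) and 31.5 (31.1 to 31.8). The Klrg1 gate was highest, at 37.5 (36.5 to 38.6) in spleen and 35.0 (34.0 to 36.1) in lymph node. The Tnfrsf9 gate had 32.9 (32.6 to 33.3) and 32.2 (31.8 to 32.6), and the Ly6c1 gate 28.3 (27.9 to 28.6) and 27.8 (27.4 to 28.2). The Klrg1 gate, whose elongation factor CPM was below that of the Ly6c1 gate, thus stood above it on this ratio, and its ribosomal protein UMIs were lower still.

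**Figure D5:**
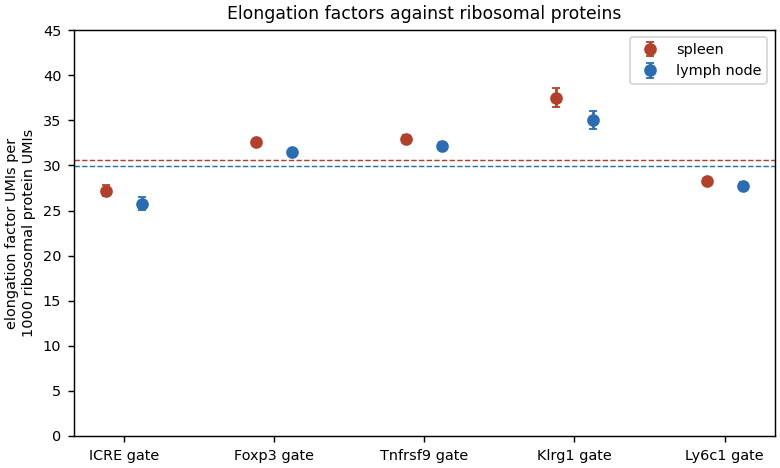
UMIs of the 5 main elongation factors per 1000 ribosomal protein UMIs in each gate of spleen (red) and lymph node (blue), with 95% counting intervals. Dashed lines give all kept cells, 30.6 in spleen and 29.9 in lymph node. With cells of all depths pooled, as here, the Klrg1 gate is highest and the ICRE gate lowest in both libraries.

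The ratio climbed with depth over all kept cells, from the lowest to the highest bin 26.6, 27.8 and 32.6 in spleen and 25.2, 27.1 and 31.8 in lymph node. At 2500 or more UMIs it was 29.0 in the ICRE gate and 33.4 in the Foxp3 gate of spleen, and 28.5 and 32.3 in lymph node. In the same bin it was 38.0 in the Klrg1 gate and 29.8 in the Ly6c1 gate of spleen, and 36.1 and 29.7 in lymph node. At 1500 to 2499 UMIs the ICRE and Foxp3 gates were closer, at 26.8 and 28.3 in spleen and 25.7 and 28.0 in lymph node. Under 1500 UMIs they were further apart again, at 26.0 and 30.9 in spleen and 23.6 and 28.7 in lymph node. The ICRE gate was therefore below the Foxp3 gate in every bin of both libraries. It was not set apart from the Ly6c1 gate within bins. From the lowest to the highest bin the Ly6c1 gate had 25.9, 26.8 and 29.8 in spleen and 24.1, 26.2 and 29.7 in lymph node. The intervals of the ICRE and Ly6c1 gates overlap in every bin.

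Between the tissues few members differed in size. Over all kept cells 35 of 53 members were higher in spleen than in lymph node, 3 were higher past the call size, where 3.15% of all features were, and none was lower past it, where 3.73% were. The member median was 0.042 and that of all features 0.016, so the features as a whole also leaned slightly to spleen. The share of all features that were higher in spleen by any size is not given here. Eif4ebp1 had 24.3 CPM in spleen and 16.9 CPM in lymph node, a ratio of 1.44 (1.22 to 1.71). Eif4e3 had 32.6 and 24.3 CPM, a ratio of 1.34 (1.17 to 1.55), and Eef1akmt1 had 101 and 80.2 CPM, a ratio of 1.26 (1.17 to 1.36). Each of these 3 lost its call under at least 1 alternative, with lowest log2 ratios of 0.16 for Eif4ebp1 after thinning to 1200 UMIs, 0.29 for Eif4e3 without cells with a cycling marker and 0.30 for Eef1akmt1 as a mean of single cells. Eif4a1 was next, with 672 CPM in spleen and 544 CPM in lymph node, a ratio of 1.24 (1.20 to 1.27), followed by Eif5a with 787 and 672 CPM, a ratio of 1.17 (1.14 to 1.20).

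Of the eIF3 subunits 12 of 13 were higher in spleen, with a sum of 4296 CPM in spleen and 4059 CPM in lymph node, a ratio of 1.06 (1.05 to 1.07). The eIF2B sum had a ratio of 0.944 (0.885 to 1.007), which includes 1. Its 4 subunits above the minimum were lower in spleen, of which Eif2b4 had 23.4 against 27.5 CPM, a ratio of 0.852 (0.736 to 0.986), and Eif2b3, below the minimum, had 14.7 against 12.8 CPM. Eif4e2 was lower too, at 84.8 CPM in spleen and 99.6 CPM in lymph node, a ratio of 0.852 (0.790 to 0.919). The elongation sum was level, at 10042 and 10037 CPM, with a ratio interval of 0.993 to 1.008, and 33 of 80 ribosomal proteins were higher in spleen. Within the gates the number of members higher in spleen was 34 in the ICRE gate, 41 in the Foxp3 gate, 35 in the Tnfrsf9 gate, 34 in the Klrg1 gate and 35 in the Ly6c1 gate, of 53 each. Of all 5043 features, 2610, 2716, 2765, 2650 and 2287 were higher in spleen in these gates, in the same order. Tissue and library cannot be told apart in this design.

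Cells with a Foxp3 or ICRE UMI (1744 in spleen and 1361 in lymph node) differed little from cells with neither (4799 and 3459). The member median was 0.068 in spleen and -0.028 in lymph node, where all features had 0.015 and 0.0073. In spleen 1 member was higher past the call size, Eif4e2, and 1 was lower, Eif4a2, against backgrounds of 6.6% and 3.49%. In lymph node none was higher and 1 was lower, against backgrounds of 3.91% and 3.41%, and none passed in both (backgrounds 2.06% and 0.912%). Eif4e2 had 101 CPM in detected cells and 76.9 CPM in the others of spleen, and 113 and 93.2 CPM in lymph node. Eif4a2 had 246 against 310 CPM in spleen and 277 against 301 CPM in lymph node.

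Cell-to-cell spread was read after thinning each cell to 1200 UMIs, as the variance over the mean (Fano factor), which is 1 for counting noise alone. Over the 29 members at 100 CPM or more the median was 1.03 in spleen and 1.01 in lymph node, against 1.03 in each library for all 1274 features at that level. The highest members were Eef1a1, at 1.55 in spleen and 1.60 in lymph node, Eif5a, at 1.23 and 1.17, and Eif1, at 1.20 and 1.12. The median member was thus close to counting noise at this depth.

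Finally, members with the E-box upstream were set beside those without. Among the members at 20 CPM or more with a window, the median ICRE over Foxp3 log2 ratio was -0.17 in spleen and -0.18 in lymph node for the 9 with CACGTG, and -0.065 and -0.11 for the 33 without. For Tnfrsf9 over Ly6c1 the medians were 0.50 and 0.23 with the motif and 0.32 and 0.29 without. Of the lower members that the naming rule took in the ICRE over Foxp3 contrast, Eef2 and Eif4a1 hold the motif. Eef1a1, Eef1b2, Eif2s1 and Eif3l do not.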

How the data were processed

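Single-cell RNA was measured in 1 spleen and 1 lymph node library. The deposited values are UMI counts per gene and barcode, made by the authors, and the submitters' processing notes name Cell Ranger 3.0.1 and mm10. No deposited barcode held fewer than 500 UMIs. The members and lists were chosen with earlier results of these data known. Cells were kept with at least 500 genes and at most 10% mitochondrial UMIs, which left out 297 spleen and 259 lymph node barcodes. Doublets were not removed, and an alternative left out the deepest 6% of cells. Gates on raw UMIs were used because the sources used here give no YFP status per cell.

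Counts were summed over the cells of a gate and scaled to CPM, with the gate genes left out of the total. Levels have exact Poisson intervals, ratios exact conditional intervals and shares Clopper-Pearson intervals, at 95% and for counting error only. UMIs of a library come from 1 pool of cells, so the spread between animals is unknown. A list median has an order-statistic interval over its genes, which gives their spread. A call is a size and not a test. Features for lists had a mean of at least 20 CPM over all kept cells of both libraries. Named in each contrast were up to 8 members whose ratio interval lay on the same side of 1 in both libraries, by the smaller log2 ratio, and always Eef1a1, Eef2, Eif4a1, Eif4a2, Eif4e, Eif5a, Eif1, Eif2s3x, Eif2s3y, Eif4ebp1, Eif4ebp2 and Eef2k. Members named elsewhere stand in counts or lists, or were chosen after their values were seen.

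Positions are from GENCODE M21 on GRCm38, and upstream sequences are RefSeq's on GRCm38.p6. Intervals were tested on simulated data. Python 3.11.15, numpy 2.4.6, scipy 1.17.1, pandas 2.3.3 and matplotlib 3.10.9 were used. The sums of some marker lists are not reported here.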

Additional observations from a re-analysis of the deposited data

Results flagged for a closer look

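In cells with a Foxp3 or ICRE UMI, set against cells with neither, Eif4a1 and Eif5a differed in direction between the libraries. The log2 ratio of Eif4a1 was 0.12 in spleen, from 712 CPM in detected cells and 653 CPM in the others, and -0.080 in lymph node, from 524 and 554 CPM. That of Eif5a was 0.10 in spleen, from 825 and 768 CPM, and -0.12 in lymph node, from 636 and 689 CPM. The counting intervals exclude a ratio of 1 in all 4 cases, and the difference between the libraries was not tested. When cells were weighted to equal depth deciles, the spleen values were -0.026 for Eif4a1 and -0.12 for Eif5a, and without cells that held a cycling marker Eif5a was -0.0080. The cause of these changes was not tested.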

How the results depend on the processing

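No paired analysis was possible because each tissue has 1 library. Named members whose reported interval excludes a ratio of 1 had the opposite sign in 30 of 1375 values under the alternatives, and those whose interval includes 1 had it in 139 of 641. Of 154 list medians, 140 stayed inside their interval. The ICRE over Foxp3 elongation ratio ranged from 0.670 to 0.835 in spleen and from 0.656 to 0.843 in lymph node over 11 alternatives each, with the values nearest to 1 from weighting cells to equal depth deciles. The Klrg1 gate is small, with 126 and 140 cells.

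List medians that moved past their interval were, in spleen over lymph node, 0.10 without cells carrying markers of other cell types. For Klrg1 over Ly6c1 they were -0.064 with ribosomal protein and mitochondrial UMIs out of the total and -0.066 at a minimum of 100 CPM in spleen, and -0.16 with that total and -0.10 centred on the median of all features in lymph node. For Tnfrsf9 over Ly6c1 they were 0.11 with that total, 0.049 centred and 0.12 in cells with a Foxp3 or ICRE UMI in spleen, and 0.15 centred and 0.36 with gates at 2 UMIs in lymph node. For Tnfrsf9 over Klrg1 they were 0.23 with that total in spleen and 0.049 without the deepest cells in lymph node. For detected cells over the others in spleen they were 0.027 after thinning to 1200 UMIs and -0.050 with depth deciles.

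The 30 sign changes of members whose interval excludes 1 were as follows, as log2 ratios. In spleen over lymph node, Eef1a1 was 0.0057 without cells carrying markers of other cell types, and in ICRE over Foxp3, Eif3l was 0.17 in lymph node with the same cells left out. In Klrg1 over Ly6c1 in spleen, Eef2 was -0.064 with the reduced total and -0.017 centred, and Eif2s1 was -0.042 thinned and -0.43 without the deepest cells. Eif5a was -0.013 with the reduced total, -0.0079 as a mean of single cells, -0.0033 with depth deciles, -0.26 without the deepest cells and -0.073 without cells with a cycling marker, an alternative chosen after seeing the data. In lymph node, Eef2 was -0.030 with the reduced total and -0.033 with depth deciles. In Tnfrsf9 over Ly6c1 in lymph node, Eef1a1 was -0.038 with the reduced total, -0.084 centred, -0.095 with depth deciles, -0.023 under a stricter cell filter and -0.0058 without the deepest cells, Eif1ax was -0.074 thinned and Eif4a2 was 0.099 with depth deciles. In Tnfrsf9 over Klrg1, Eef1e1 was -0.24 thinned in lymph node. For detected cells in spleen, depth deciles gave -0.060 for Eef1a1, -0.050 for Eef2, -0.026 for Eif4a1 and -0.12 for Eif5a, and Eif5a was -0.0080 without cells with a cycling marker. In lymph node, Eif5a was 0.00079 as a mean of single cells and 0.015 thinned, and Eef1a1 was -0.053 with depth deciles and -0.0015 under the stricter filter. The cause of these changes was not tested.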
